A study of Mus musculus with 12 samples.

Results

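Chromatin accessibility at the genes of the histone demethylase LSD1 and the proteins that work with it was compared between B cells of the splenic marginal zone (MZB) and of the follicles (FoB), each from wild-type and LSD1 knockout mice. The set held 10 genes: the LSD1 gene Kdm1a and its paralog Kdm1b, the CoREST scaffolds Rcor1, Rcor2 and Rcor3, the complex subunits Phf21a, Hmg20b and Zmym2, and the DNA-binding repressors Gfi1 and Gfi1b. A region of the deposited table belonged to the set where the protein-coding gene it overlapped, or else lay nearest to on mm10, was one of these 10, which gave 64 of 94161 regions. Of the 64, 63 passed the filter on low values (at least 1 rppm in at least 3 libraries), and 1 region inside Phf21a did not. Regions were assigned by position alone. Phf21a had 17 regions, Gfi1 10, Rcor1 9, Zmym2 9, Rcor3 5, Gfi1b 4, Kdm1b 3, Rcor2 3, Hmg20b 3 and Kdm1a 1.

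LSD1 removes methyl groups from lysine residues of histones, above all from methylated histone H3 lysine 4 at enhancers and promoters. It acts in the CoREST complex, in which an RCOR scaffold ties it to the histone deacetylases HDAC1 and HDAC2, and further subunits such as PHF21A (BHC80), HMG20B (BRAF35) and ZMYM2 contact nucleosomes and DNA. LSD1 does not read a DNA sequence itself. GFI1 and GFI1B bring it to their sites through an N-terminal SNAG domain that resembles the histone H3 tail, and both are known as repressors in blood cell formation, lymphocytes included.

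Accessibility was read by ATAC-seq (Tn5 transposase cuts and tags DNA where chromatin is open) from 10000 sorted cells per library with 60 min of tagmentation. All cells came from spleens of female C57BL/6J mice and were not stimulated. The age of the mice has not been given in the sources used here. MZB were gated as CD23-, CD21hi and CD1d+ cells, and FoB as CD23+, CD21mid and CD1d- cells. Both gates also took B220+ cells and left out Thy1.1+, F4/80+, CD11b+, CD93+ and GL7+ cells. The 4 groups (wild-type MZB, knockout MZB, wild-type FoB, knockout FoB) held 3 libraries each. Which cells lost LSD1, and through which Cre or allele, could not be read from the sources. Nothing in the labels says that the 3 libraries of a group came from separate mice, so the p-values measure the spread between libraries, which may be technical.

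The start sites give a first view of these genes. Printed are the RefSeq start windows (GRCm38.p6, 250 bases before to 50 after the start, coding strand, 5′ to 3′) of 5 genes whose start regions carry results given further on: the targeted gene, the recruiter Gfi1, whose start was called higher in the mean of both knockout effects, the start with the smallest p between cell types, and the Rcor3 and Phf21a starts. Capitals mark matches to GGGCGG, the core that SP and KLF factors bind, on either strand.
Kdm1a, chr4:136602674-136602973: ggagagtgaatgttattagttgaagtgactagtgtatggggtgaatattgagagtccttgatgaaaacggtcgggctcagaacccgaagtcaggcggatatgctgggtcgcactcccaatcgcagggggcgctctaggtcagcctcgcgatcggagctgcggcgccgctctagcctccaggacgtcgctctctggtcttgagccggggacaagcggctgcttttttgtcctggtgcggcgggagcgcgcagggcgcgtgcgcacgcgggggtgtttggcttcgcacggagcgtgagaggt
Rcor3, chr1:192137991-192138290: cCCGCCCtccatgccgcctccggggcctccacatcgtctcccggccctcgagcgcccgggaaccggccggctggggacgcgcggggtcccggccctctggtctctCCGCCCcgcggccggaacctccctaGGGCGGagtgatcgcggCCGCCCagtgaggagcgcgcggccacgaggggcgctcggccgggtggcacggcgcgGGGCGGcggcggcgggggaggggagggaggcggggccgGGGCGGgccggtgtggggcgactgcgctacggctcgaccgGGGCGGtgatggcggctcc
Gfi1, chr5:107725756-107726055: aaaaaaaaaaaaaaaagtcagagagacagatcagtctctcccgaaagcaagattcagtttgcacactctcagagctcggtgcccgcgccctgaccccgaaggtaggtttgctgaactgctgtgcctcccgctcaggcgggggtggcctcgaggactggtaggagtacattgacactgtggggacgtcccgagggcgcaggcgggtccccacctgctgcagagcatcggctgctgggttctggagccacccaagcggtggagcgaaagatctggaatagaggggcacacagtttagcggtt
Phf21a, chr2:92185233-92185532: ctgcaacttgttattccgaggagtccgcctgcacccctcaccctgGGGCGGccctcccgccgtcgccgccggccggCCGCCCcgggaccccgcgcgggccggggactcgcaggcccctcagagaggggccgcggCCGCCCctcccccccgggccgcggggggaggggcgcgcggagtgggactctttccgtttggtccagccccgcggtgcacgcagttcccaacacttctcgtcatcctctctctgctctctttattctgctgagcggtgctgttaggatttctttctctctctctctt
Hmg20b, chr10:81350408-81350707: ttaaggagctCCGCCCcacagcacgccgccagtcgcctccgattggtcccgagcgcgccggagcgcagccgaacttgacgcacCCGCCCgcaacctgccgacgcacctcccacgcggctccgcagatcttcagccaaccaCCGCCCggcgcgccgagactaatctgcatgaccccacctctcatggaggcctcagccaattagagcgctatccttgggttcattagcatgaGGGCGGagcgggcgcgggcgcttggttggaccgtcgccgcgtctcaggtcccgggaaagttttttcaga

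All 10 genes were found in the RefSeq table, with 15 start windows in all. The windows were searched on both strands for GGGCGG, for CCGGAAG (ETS factors), the NRF1 motif, CAGCTG (E-box) and AAATCNC (the GFI1 core). Motifs were counted one at a time, so a base could count in more than one of them. GGGCGG was present in 10 of the 15 windows, against 35.7% of all 32851 windows in the table, with 7 matches in Rcor3, 6 each in Rcor1 and Kdm1b, and 0 in the windows of Kdm1a and Gfi1. The 3 Hmg20b windows among these 10 overlap almost wholly and share most of their matches, so they are not separate cases. CAGCTG was present in 2 windows (16.3% of all), CCGGAAG in 1 (8.86% of all), the second Gfi1 start, and the NRF1 motif in 0 (0.971% of all). The GFI1 core was in 0 of the 15 windows and in 11.7% of all windows; this says only that these letters are not in these 300 bases. GC content was 61.3% in the Kdm1a window, 81.7% in Rcor3 and 58.0% in the first Gfi1 window, against a median of 52.7% over all windows. Gfi1b had 44.3%. A region of the table covered all 300 bases of 11 of the 15 windows and 232 bases of the Gfi1b window, and none touched the window of Rcor2 or those at the second starts of Gfi1 and Phf21a.

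Values are RPM counted over the listed regions alone (rppm). The recovered totals were 3169966 to 10375328 reads per library, so 3 reads, the limit that a count of 0 allows, were worth 0.289 to 0.946 rppm. In summed regions of 6 MZB genes (Cr2, Cd1d1, Cd9, Dtx1, S1pr3 and Myof), wild-type MZB libraries held 1311 to 1384 rppm and wild-type FoB libraries 936 to 995, and Fcer2a, which encodes CD23, held 44.8 to 53.2 against 92.3 to 102 rppm, as the labels have it. Regions of immature and transitional B cell genes summed to 307 to 326 rppm in wild-type MZB, 414 to 431 in knockout MZB, 490 to 528 in wild-type FoB and 524 to 574 in FoB of the knockout. Vpreb1 had no region. In the MZB knockout comparison 6 of 53 tested regions were called, all higher (11.3%, against 0.777% of all tested regions called in either direction). These 6 lay at Cd93 or had Sox4 as nearest gene, up to 190693 bp away. The other genes of the list had none. Myeloid genes (4 of 6 with a region, none for Mpo and Elane) summed to 221 to 235 rppm in wild-type and 249 to 273 in knockout MZB, against 207 to 214 and 204 to 214 in FoB. T cell genes summed to 3.93 to 15.5 rppm in all libraries, with no region for Cd3g, Cd4 and Cd8a. NK cell genes (Ncr1 and Klrb1c) summed to 282 to 290 rppm in wild-type and 300 to 331 in knockout MZB, and 336 to 383 in FoB. Erythroid and megakaryocyte genes, the other lineages in which Gfi1b is known to act, summed to 117 to 134 rppm, with no region for Gata1. In the mean of the knockout effects in both cell types, 2 of 15 NK cell regions (13.3%) and 5 of 53 immature B cell regions (9.43%) were called higher, against 1.3% of all tested regions. The NK cell calls were at or near Klrb1c alone, and the immature B cell calls were again at Cd93 or nearest to Sox4. What part these cell differences have in the results was not tested, and in bulk samples fewer cells with an open site and less opening per cell cannot be told apart.

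Between the cell types, regions of the set differed in both directions. The largest differences were at 2 upstream elements. One, 13151 bp before the start of Rcor3, was 9.13 times as accessible in wild-type MZB as in wild-type FoB. The other, 8048 bp before the start of Gfi1b, was 5.62 times as accessible. Both folds divide by few wild-type FoB reads, 12 at the Rcor3 element, so their size is uncertain. The Rcor3 element passed the filter on low values through MZB libraries alone, and the Gfi1b element mostly so. The start regions of Hmg20b, Rcor3 and Kdm1b were lower in MZB. By limma on log2(rppm + 0.5) with Benjamini-Hochberg adjustment over all 89782 tested regions, 9 of the 63 regions were higher in wild-type MZB than in wild-type FoB, where 24.2% of all tested regions were, and 6 were lower, where 11.4% were. In the knockout libraries 9 of 63 were higher in MZB (23.2% of all) and 4 lower (9.47% of all). The counts are thus no larger than the shares of all regions would give. Of the 15 and 13 regions called, 7 were called in both genotypes (46.7% and 53.8% of the calls), all 7 in the same direction.

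**Figure D1:**
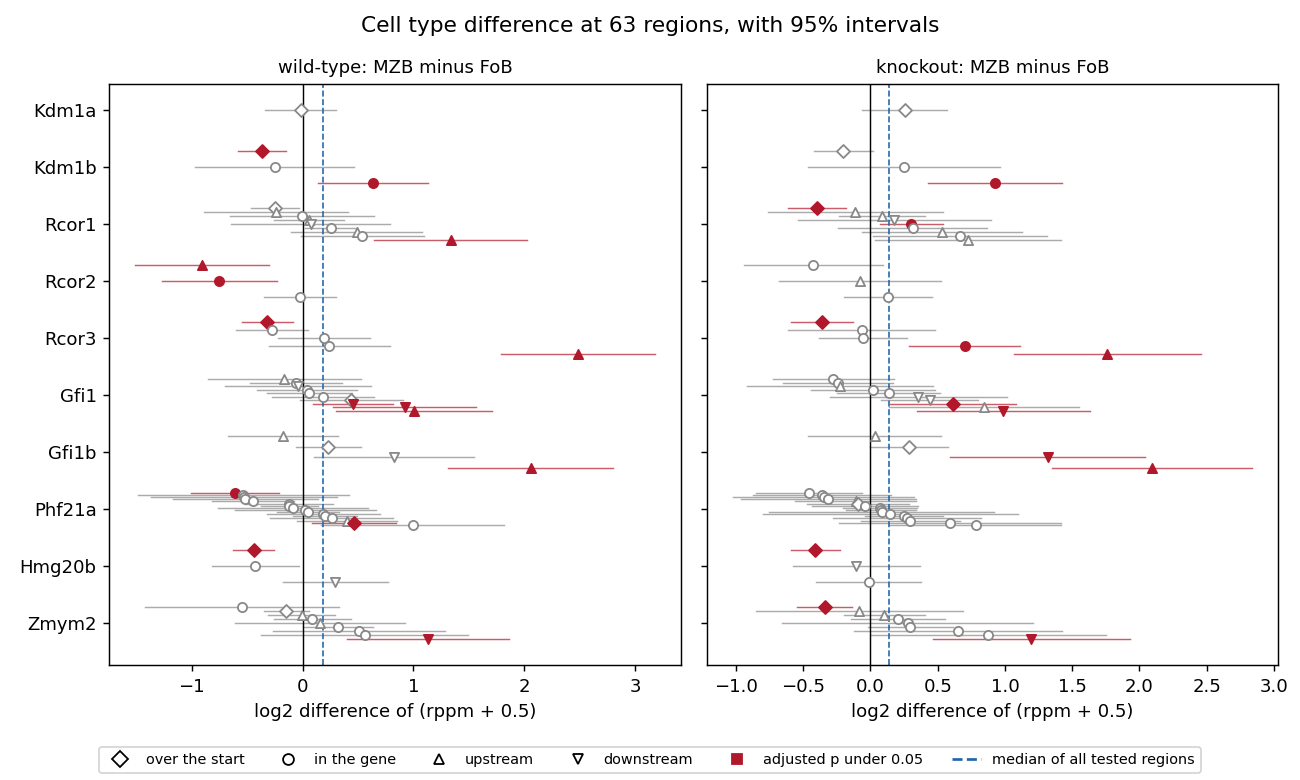
Log2 difference of (rppm + 0.5) between MZB and FoB (x axis) for the 63 tested regions, by gene (y axis), in wild-type (left) and knockout (right) libraries; lines are 95% intervals, symbols give the place of the region and filled red symbols passed an adjusted p of 0.05. The Rcor3 and Gfi1b upstream regions lie farthest to the right in both genotypes, and the dashed line is the median of all tested regions (0.18 and 0.14).

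The split between higher and lower depended on the scaling. The median of all tested regions stood at 0.18 in wild-type and 0.14 in knockout libraries (MZB minus FoB, log2), and other scalings moved it by -0.13 to -0.38 and by -0.12 to -0.40. Members higher and lower in wild-type MZB then numbered 3 and 7 after quantile normalisation, 3 and 18 after median centring, 6 and 12 by edgeR with TMM factors, and 3 and 9 by DESeq2. In the knockout libraries they numbered 3 and 4, 3 and 14, 6 and 6, and 3 and 5. Of all called regions in wild-type libraries, 67.9% were higher in MZB as deposited and 33.2% to 52.4% under these 4 scalings. The Rcor3 and Gfi1b upstream regions were called higher in MZB in both genotypes under every setting that kept them. The setting limited to regions that overlap a gene leaves them out. Relative to the median of all regions their differences were 2.30 and 1.87 in wild-type libraries. Of all 30 called pairs of region and comparison, 1 changed direction in any setting, a region inside Rcor1.

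Position went with direction in this set as over the whole table. Of the 9 member regions over a start window, 3 were lower and 1 was higher in wild-type MZB (median -0.15), and of all 8939 such regions 3635 were lower and 736 higher (median -0.24). Of the 54 member regions elsewhere, 8 were higher and 3 lower (median 0.07), against 21021 and 6634 of 80843 (median 0.24). This division was chosen after the values were seen.

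No single region of the set passed the test for the knockout within a cell type. In MZB, 0 of 63 regions were called by limma, where 0.777% of all tested regions were, and 7 (11.1%) had an unadjusted p under 0.05, against 13.3% of all. In FoB, 0 of 63 were called (0.539% of all), with 4 (6.35%) at an unadjusted p under 0.05, against 9.05% of all. By edgeR with and without TMM factors and by DESeq2 0 were also called in each cell type (DESeq2 gave 58 of the 63 an adjusted p), with 5, 5 and 4 regions at an unadjusted p under 0.05 in MZB and 3, 3 and 3 in FoB. The knockout libraries stood wholly apart from the wild-type ones at 8 of 63 regions in MZB (5 higher, 3 lower in the knockout) and at 8 of 63 in FoB (6 higher, 2 lower), where 17.7% and 14.7% of all tested regions did so. The intervals bound what could have been missed: the 95% interval of the difference lay within 1 log2 unit of 0 for 46 of 63 regions in MZB and 52 of 63 in FoB, and the bounds over the set reached from -1.52 to 1.81 and from -1.36 to 1.53. On simulated tables of this size and depth, the MZB knockout comparison recovered 30 of 100 regions changed 2-fold and 98 of 100 changed 4-fold. It also made 14 false calls. The changed regions were drawn from those with a mean above 5 rppm, at a fixed dispersion of 0.03 between libraries. Many regions of the set lie below that level, so these rates do not hold for them.

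The difference between the knockout effects in MZB and FoB was called at 0 of 63 regions by limma (0.00111% of all tested), with 3 at an unadjusted p under 0.05, and at 0 by edgeR and DESeq2 (3, 3 and 1 at an unadjusted p under 0.05). The mean of both knockout effects, added after the values were seen, called 2 regions higher in the knockout (1.3% of all tested) and 0 lower (0.906%), with 8 at an unadjusted p under 0.05. These 2 were an element upstream of Rcor1 and the Gfi1 start, both described with their genes. By edgeR 2 were higher with and without TMM factors, and by DESeq2 0 of the 43 regions to which it gave an adjusted p, the Rcor1 element not among them, with 8, 7 and 4 of all 63 at an unadjusted p under 0.05.

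**Figure D2:**
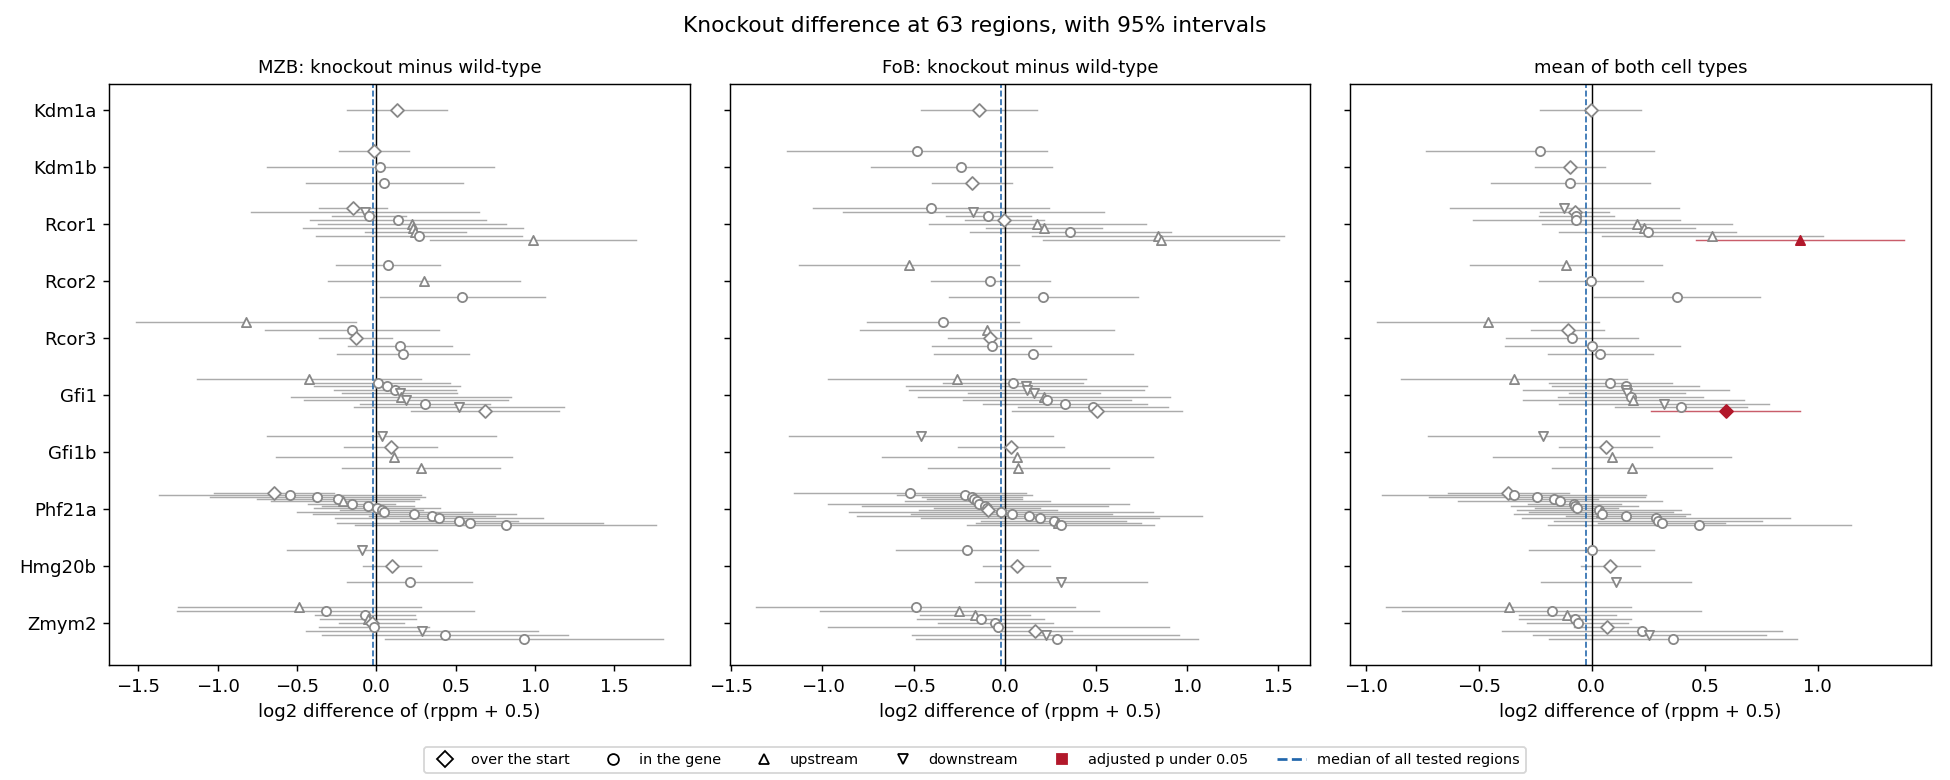
Log2 difference of (rppm + 0.5) between knockout and wild-type libraries (x axis) for the 63 tested regions, by gene (y axis), in MZB, in FoB and as the mean of both; lines are 95% intervals and filled red symbols passed an adjusted p of 0.05. None is filled in either cell type alone, and in the mean the Rcor1 upstream region and the Gfi1 start are.

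Kdm1a encodes LSD1, the gene the knockout targets. Its single region, chr4:136601890-136603082, covers the start site. It read 24.0, 28.5 and 16.5 rppm in wild-type MZB and 18.9, 29.7 and 26.6 in the knockout, and 24.9, 21.2 and 22.2 in wild-type FoB against 20.5, 20.6 and 20.6 in the knockout (libraries 1 to 3). The libraries of the 4 groups overlapped, apart from knockout FoB, whose libraries all lay below those of wild-type FoB by a small margin. The knockout differed from wild-type by 0.13 ± 0.16 (SE, adjusted p = 0.773) in MZB and -0.14 ± 0.16 (SE, adjusted p = 0.866) in FoB. The position of the deleted sequence has not been given in the sources used here, so the region was not used to check the genotype labels. No other region of the table was assigned to Kdm1a, and none covered its exons farther in.

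Kdm1b, which encodes LSD2, a demethylase of the same kind that works in gene bodies, had 3 regions. Its start region chr13:47042968-47043945 also overlaps Tpmt, the neighbouring gene, and cannot be given to one of them. The libraries held 48.3, 43.1 and 46.7 rppm in wild-type and 50.8, 42.0 and 44.0 in knockout MZB, and 69.8, 51.8 and 57.8 in wild-type and 50.3, 48.0 and 59.5 in knockout FoB. Wild-type FoB lay above wild-type MZB in every library, and wild-type FoB library 1 was the highest of the 12. The cell type difference was -0.36 ± 0.11 (SE, adjusted p = 0.00774) in wild-type and -0.20 ± 0.11 (SE, adjusted p = 0.157) in knockout libraries; without wild-type FoB library 1 the first had an adjusted p of 0.0984, and after quantile normalisation 0.291.

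A second Kdm1b region lies inside the gene, 1132 bp past the start. Wild-type MZB libraries measured 5.40, 7.98 and 7.78 rppm and knockout MZB libraries 8.40, 6.31 and 7.09, while wild-type FoB libraries measured 5.20, 4.24 and 3.58 and knockout FoB libraries 3.10, 5.15 and 2.80. It ran the other way from the start region of the same gene: MZB was higher by 0.64 ± 0.25 (SE, adjusted p = 0.0404) in wild-type and by 0.93 ± 0.25 (SE, adjusted p = 0.00331) in knockout libraries. The wild-type call was lost without any of 4 libraries (wild-type MZB 2 or 3, wild-type FoB 2 or 3), with adjusted p up to 0.158. It was also lost after quantile normalisation, after median centring, by edgeR with TMM factors and by DESeq2 (adjusted p up to 0.441, difference down to 0.26), and the knockout call was lost under the same settings apart from edgeR (adjusted p up to 0.1035). The third region, farther in the gene, was below 3.5 rppm in every library and was not called.

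Rcor1 encodes CoREST1, the main scaffold of the complex. Its start region chr12:111038917-111039535 had 66.6 rppm per kb over the 12 libraries, the highest of the 10 genes. Accessibility was 37.8, 37.5 and 39.8 rppm in wild-type MZB, 49.3, 45.4 and 42.7 in wild-type FoB, 31.0, 36.9 and 36.1 in knockout MZB and 41.4, 45.5 and 50.6 in knockout FoB. FoB libraries lay above MZB libraries of the same genotype, with a difference of -0.25 ± 0.11 (SE, adjusted p = 0.0619) in wild-type and -0.40 ± 0.11 (SE, adjusted p = 0.0035) in knockout libraries, the latter lost after quantile normalisation (0.0779). The start region of Rcor1 thus passed the test in the knockout libraries and missed it in the wild-type ones; the difference between the genotypes in this contrast was not called at any region of the set.

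The Rcor1 element with the clearest knockout values lies 14450 bp before the start, at chr12:111024445-111024917. In MZB the wild-type libraries gave 1.35, 1.86 and 1.24 rppm and the knockout libraries 3.50, 3.79 and 2.96, and in FoB 1.095, 2.22 and 2.39 and 3.10, 4.94 and 3.30. In both cell types every knockout library was above every wild-type library. The mean knockout effect was 0.92 ± 0.23 (SE, adjusted p = 0.0196), with 0.99 ± 0.32 (SE, adjusted p = 0.144) in MZB and 0.86 ± 0.32 (SE, adjusted p = 0.332) in FoB. These levels rest on few reads: 16 and 37 over the 3 wild-type and 3 knockout MZB libraries, and 37 and 52 in FoB. The call was lost without knockout MZB library 2, wild-type FoB library 1 or knockout FoB library 2, with adjusted p up to 0.075.

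A neighbouring Rcor1 element, 7278 bp before the start, differed by cell type. It read 3.78, 1.86 and 3.73 rppm in wild-type MZB and 2.57, 5.05 and 3.55 in the knockout, and 1.095, 0.867 and 0.716 in wild-type FoB against 1.86, 2.68 and 1.53 in the knockout (libraries 1 to 3). Wild-type MZB was higher than wild-type FoB by 1.34 ± 0.34 (SE, adjusted p = 0.00212), on 33 against 16 reads, and in the knockout libraries, where FoB was at 1.53 to 2.68 rppm, by 0.73 ± 0.34 (SE, adjusted p = 0.101). After quantile normalisation the wild-type call was lost (0.0541). Among the other Rcor1 regions 1 was called, inside the gene, with MZB higher by 0.30 ± 0.12 (SE, adjusted p = 0.0415) in knockout libraries, and it turned to -0.10 after median centring. This call was also lost in 5 of the 12 fits that left out 1 library, in a fit to the compared groups alone, by edgeR with TMM factors and by DESeq2 (adjusted p up to 0.548).

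Rcor2, a CoREST scaffold known mainly from neural and stem cells, had no region over its start window. Its nearest region, chr19:7267667-7268515, begins 273 bp past the start and had 14.9 rppm per kb, the lowest of the 10 genes. The libraries held 11.6, 14.6 and 11.5 rppm in wild-type and 12.1, 14.8 and 12.7 in knockout MZB, and 14.2, 11.9 and 12.2 in wild-type and 13.7, 11.3 and 11.2 in knockout FoB. All 4 groups overlapped there. The 2 weaker Rcor2 regions were lower in wild-type MZB: the one 3017 bp before the start held 2.33 ± 0.317 rppm (SD, n = 3) in wild-type MZB and 4.93 ± 1.52 in wild-type FoB (log2 difference -0.91 ± 0.30 SE, adjusted p = 0.0158), and the one 1257 bp past it 3.25 ± 1.17 and 5.66 ± 0.811 (log2 difference -0.75 ± 0.26 SE, adjusted p = 0.0197). Both calls were lost without wild-type FoB library 1 (adjusted p up to 0.109), and the second also without wild-type MZB library 2 or 3. In knockout libraries neither passed, at -0.08 ± 0.30 (SE, adjusted p = 0.875) and -0.42 ± 0.26 (SE, adjusted p = 0.215).

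Rcor3 encodes the third scaffold, known to form LSD1 complexes with less demethylase activity on nucleosomes. Its start region chr1:192137817-192138934 was lower in MZB. Wild-type MZB libraries measured 26.5, 31.6 and 29.2 rppm and knockout MZB libraries 26.8, 25.2 and 27.5, while wild-type FoB libraries measured 35.3, 35.4 and 38.2 and knockout FoB libraries 35.4, 30.7 and 36.9. FoB libraries were above MZB libraries of the same genotype in every case, and MZB minus FoB was -0.32 ± 0.11 (SE, adjusted p = 0.0268) in wild-type and -0.36 ± 0.11 (SE, adjusted p = 0.0123) in knockout libraries. The wild-type call was lost without wild-type MZB library 1 or 3 or wild-type FoB library 2 or 3 (adjusted p up to 0.128), and the knockout call without knockout FoB library 3 (0.0655). Both were lost after quantile normalisation (0.216 and 0.0699).

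The Rcor3 element upstream, chr1:192151191-192151602, went against the start. Accessibility was 5.94, 5.85 and 5.91 rppm in wild-type MZB, 0.548, 0.675 and 0.716 in wild-type FoB, 3.27, 4.42 and 2.07 in knockout MZB and 0.828, 0.412 and 0.508 in knockout FoB. The 3 wild-type MZB libraries were nearly equal, the knockout MZB libraries were lower and more spread, and all 6 FoB libraries were under 1 rppm. The element thus passed the filter on low values through MZB libraries alone. Over 3 libraries each, it held 63 reads in wild-type MZB, 35 in knockout MZB, 12 in wild-type FoB and 8 in FoB of the knockout. MZB exceeded FoB by 2.48 ± 0.34 (SE, adjusted p = 4.09e-07) in wild-type and 1.76 ± 0.34 (SE, adjusted p = 0.00011) in knockout libraries, the largest difference of the set in wild-type libraries. The knockout difference in MZB, -0.82 ± 0.34 (SE, adjusted p = 0.277), did not pass, although the libraries did not overlap. A Rcor3 region inside the gene was higher in knockout MZB than in knockout FoB, 0.70 ± 0.21 (SE, adjusted p = 0.00752), a call lost without knockout FoB library 3 (0.0571). It was also lost after quantile normalisation, after median centring, by edgeR with TMM factors and by DESeq2 (adjusted p up to 0.24, difference down to 0.30).

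**Figure D3:**
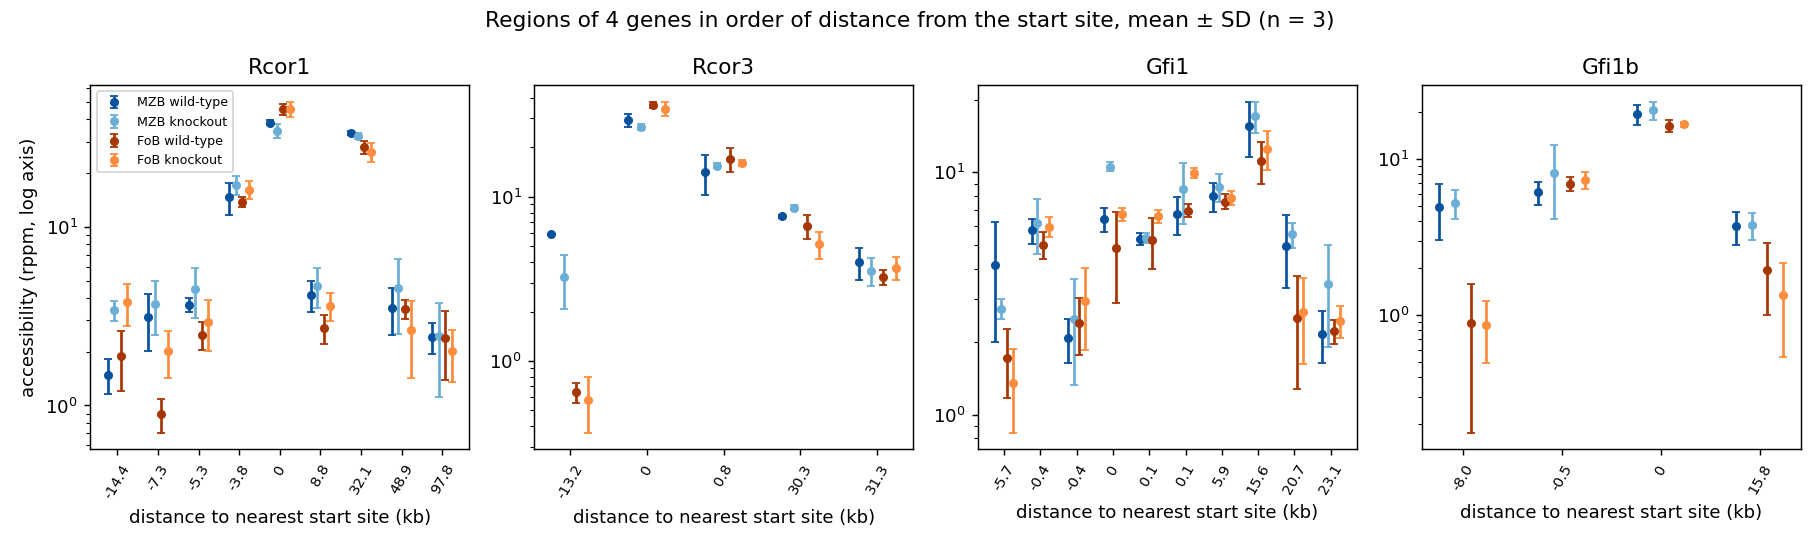
Mean accessibility in rppm (log y axis; bars are SD, n = 3) of each region of Rcor1, Rcor3, Gfi1 and Gfi1b, ordered along x by distance to the nearest annotated start site in kb (negative is before the start), in the 4 groups. The far left regions of Rcor3 and Gfi1b are at 3.25 to 5.90 rppm in MZB and under 0.9 rppm in FoB, while the start regions differ far less.

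Phf21a encodes BHC80, which binds unmethylated histone H3 lysine 4. It had 17 regions, from 0.546 to 24.5 rppm on average, most of them inside the gene. Its start region is chr2:92185182-92185696. In MZB the wild-type libraries gave 14.3, 10.9 and 10.9 rppm and the knockout libraries 6.53, 8.52 and 7.39, and in FoB 8.49, 7.61 and 9.55 and 8.90, 7.21 and 7.88. Wild-type MZB stood above the other 3 groups in every library. In MZB the knockout difference was -0.65 ± 0.19 (SE, adjusted p = 0.0924), the smallest p of the set in that comparison, and after quantile normalisation it passed with an adjusted p of 0.0355. In FoB it was -0.09 ± 0.19 (SE, adjusted p = 0.942), and the difference between the 2 effects was -0.56 ± 0.26 (SE, adjusted p = 0.798). Wild-type MZB exceeded wild-type FoB by 0.46 ± 0.19 (SE, adjusted p = 0.0495), a call lost in 9 of the 12 fits that left out 1 library (without any wild-type library, knockout MZB 3, or knockout FoB 1 or 2; adjusted p up to 0.23). The same call was lost in 8 of 12 other settings, among them the replicate block, no filter, median centring, edgeR with TMM factors and DESeq2, with adjusted p up to 0.75 and a difference down to 0.08.

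The most accessible Phf21a region, chr2:92183067-92184406, overlaps the annotated gene but ends before the start window printed above. It held 28.1, 32.2 and 21.15 rppm in wild-type MZB, 22.4, 26.8 and 28.4 in knockout MZB, 26.6, 23.3 and 20.1 in wild-type FoB libraries and, for FoB of the knockout, 19.2, 21.2 and 24.7. The groups overlapped, and no comparison was called there. One other region inside Phf21a, 16785 bp past the start, was lower in wild-type MZB (7.88 ± 1.44 rppm) than in wild-type FoB (12.3 ± 1.99 rppm), with a difference of -0.61 ± 0.20 (SE, adjusted p = 0.0137); without wild-type MZB library 3 or wild-type FoB library 3 the adjusted p rose to as much as 0.0986. The Phf21a region that did not pass the filter held 9, 10, 4 and 4 reads in wild-type MZB, knockout MZB, wild-type FoB and knockout FoB.

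Hmg20b encodes BRAF35, a DNA-binding subunit of the complex, and its start region had the smallest p among the start regions of the set. This region is chr10:81350227-81351129. It read 42.6, 45.5 and 42.3 rppm in wild-type MZB and 45.0, 47.6 and 47.0 in the knockout, and 60.5, 59.3 and 57.8 in wild-type FoB against 63.5, 61.0 and 61.5 in the knockout (libraries 1 to 3). Replicates were close, and every FoB library lay above every MZB library. MZB minus FoB was -0.44 ± 0.09 (SE, adjusted p = 0.000196) in wild-type and -0.41 ± 0.09 (SE, adjusted p = 0.000533) in knockout libraries, on 465 to 1078 reads per group. After quantile normalisation the differences shrank and missed the threshold (adjusted p of 0.0535 and 0.0854). The knockout difference was 0.10 ± 0.09 (SE, adjusted p = 0.69) in MZB and 0.07 ± 0.09 (SE, adjusted p = 0.901) in FoB, neither past the threshold.

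Zmym2 encodes a zinc finger subunit that recognises SUMO-modified partners. Its start region chr14:56886092-56886946 was the most accessible of all 64 regions in rppm. The libraries held 49.7, 54.0 and 50.7 rppm in wild-type and 51.1, 49.2 and 50.8 in knockout MZB, and 67.1, 54.9 and 50.1 in wild-type and 63.9, 58.1 and 70.2 in knockout FoB. Wild-type groups overlapped, and the knockout groups did not. The difference was -0.15 ± 0.10 (SE, adjusted p = 0.272) in wild-type and -0.34 ± 0.10 (SE, adjusted p = 0.00832) in knockout libraries, the latter lost without knockout FoB library 3 (0.0633) and after quantile normalisation (0.339). A weak region downstream of Zmym2 was higher in MZB in both genotypes, at 2.42 ± 0.683 rppm against 0.839 ± 0.368 in wild-type libraries (log2 difference 1.13 ± 0.36 SE, adjusted p = 0.0126) and 3.12 ± 1.19 against 1.03 ± 0.00936 in knockout libraries (log2 difference 1.20 ± 0.36 SE, adjusted p = 0.00947). It rested on 26 against 18 and 33 against 14 reads; the wild-type call was lost without wild-type MZB library 2 or wild-type FoB library 1 (adjusted p up to 0.0734), and the knockout call without knockout MZB library 3 (0.0782). Both were lost after quantile normalisation, after median centring and by DESeq2 (adjusted p up to 0.218 and 0.145).

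**Figure D4:**
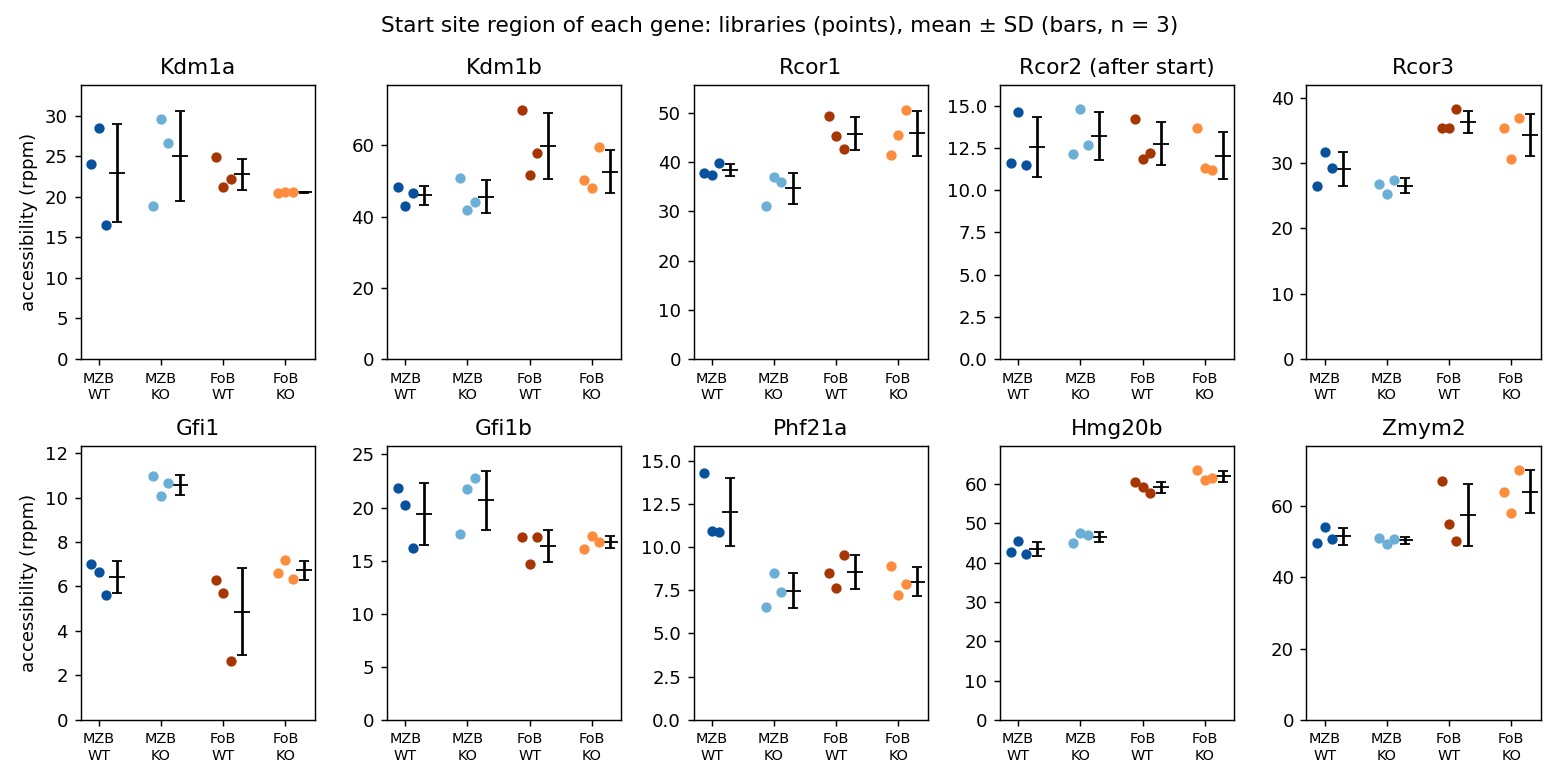
Accessibility in rppm (y axis, from 0) of the start region of each of the 10 genes in the 12 libraries (points, by group on the x axis), with mean and SD beside them (n = 3); for Rcor2 the region just past the start is drawn. Hmg20b and Rcor3 are lower in both MZB groups, Gfi1 is highest in knockout MZB at 10.1 to 11.0 rppm, and Phf21a is highest in wild-type MZB at 10.9 to 14.3 rppm.

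Gfi1 encodes a SNAG repressor that recruits LSD1 and is known to repress its own gene. Its start region is chr5:107725732-107726156. Wild-type MZB libraries measured 7.02, 6.65 and 5.60 rppm and knockout MZB libraries 11.0, 10.1 and 10.6, while wild-type FoB libraries measured 6.30, 5.69 and 2.63 and knockout FoB libraries 6.62, 7.21 and 6.35. In each cell type the knockout libraries all lay above the wild-type ones, by a clear gap in MZB and narrowly in FoB, where wild-type library 3 was far below the other two. The knockout difference was 0.68 ± 0.23 (SE, adjusted p = 0.162) in MZB and 0.51 ± 0.23 (SE, adjusted p = 0.494) in FoB. The mean of both was 0.59 ± 0.16 (SE, adjusted p = 0.0417), and this call was lost in 9 of the 12 fits that left out 1 library, with adjusted p up to 0.18, and with a pseudocount of 0.1 and by DESeq2 (up to 0.166). The 3 fits that kept it left out wild-type FoB library 1 or 2 or knockout FoB library 3. Knockout MZB exceeded knockout FoB by 0.62 ± 0.23 (SE, adjusted p = 0.0367), a call lost without any of the 6 knockout libraries (adjusted p up to 0.095), and after quantile normalisation, after median centring, by edgeR with TMM factors and by DESeq2 (up to 0.476). Just inside the gene a second region lay at 6.96 ± 0.420 rppm in wild-type FoB and 9.94 ± 0.473 in knockout FoB, without overlap, and did not pass (log2 difference 0.49 ± 0.20 SE, adjusted p = 0.426).

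Downstream of Gfi1, on the side away from the start, 2 regions were higher in wild-type MZB. The more accessible one, chr5:107708000-107708702, 15641 bp past the nearest start, is the strongest Gfi1 region. Accessibility was 13.8, 12.8 and 20.2 rppm in wild-type MZB, 8.76, 11.6 and 13.1 in wild-type FoB, 17.3, 14.5 and 19.5 in knockout MZB and 15.1, 10.7 and 11.7 in knockout FoB. The groups overlapped in single libraries, and wild-type MZB library 3 was the highest of the 12. MZB minus FoB was 0.45 ± 0.18 (SE, adjusted p = 0.0446) in wild-type libraries, lost without wild-type MZB library 3 or wild-type FoB library 1 or 2 (adjusted p up to 0.329). It was also lost with a pseudocount of 0.1, after quantile normalisation, after median centring, by edgeR with TMM factors and by DESeq2 (adjusted p up to 0.773, difference down to 0.08). The weaker one, 20659 bp past it, held 4.99 ± 1.66 rppm in wild-type MZB and 2.51 ± 1.23 in wild-type FoB (log2 difference 0.92 ± 0.32 SE, adjusted p = 0.0213), and differed alike in knockout libraries (log2 difference 0.99 ± 0.32 SE, adjusted p = 0.0149). The first of these 2 calls was lost without wild-type MZB library 1 or 3 or wild-type FoB library 1 (adjusted p up to 0.219), the second without knockout MZB library 1 or knockout FoB library 2 (up to 0.0826). Quantile normalisation, median centring and DESeq2 ended both (adjusted p up to 0.257 and 0.2135), and edgeR with TMM factors the first. A further called region, 5683 bp before the start, was higher in wild-type MZB by 1.01 ± 0.35 (SE, adjusted p = 0.0223), lost without wild-type MZB library 3 or wild-type FoB library 1, after quantile normalisation, after median centring and by DESeq2 (adjusted p up to 0.257).

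Gfi1b encodes the paralog known from red cell and platelet formation. Its start region chr2:28621663-28622164 was the least rich in GC of the start sites covered. In MZB the wild-type libraries gave 21.9, 20.2 and 16.2 rppm and the knockout libraries 17.5, 21.8 and 22.8, and in FoB 17.3, 14.7 and 17.2 and 16.1, 17.3 and 16.8. Groups overlapped, save that knockout MZB lay narrowly above knockout FoB, and no comparison was called. The upstream element chr2:28630030-28630454 was the clearest of the gene. It read 4.32, 7.18 and 3.42 rppm in wild-type MZB and 6.30, 4.10 and 5.32 in the knockout, and 1.64, 0.771 and 0.239 in wild-type FoB against 0.828, 1.24 and 0.508 in the knockout (libraries 1 to 3). All 6 MZB libraries were above all 6 FoB libraries, and the genotypes overlapped within each cell type. MZB exceeded FoB by 2.06 ± 0.37 (SE, adjusted p = 2.82e-05) in wild-type and 2.10 ± 0.37 (SE, adjusted p = 2.4e-05) in knockout libraries. It held 54 and 58 reads in the MZB groups and 15 and 12 in the FoB groups. A region 15796 bp past the start was also higher in knockout MZB, at 3.78 ± 0.748 against 1.35 ± 0.811 rppm (log2 difference 1.32 ± 0.36 SE, adjusted p = 0.00403), and fell short without knockout FoB library 1 (0.0651) and after quantile normalisation (0.0681).

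Start regions compared per kb of region ran, over 12 libraries, from 14.9 rppm per kb at Rcor2 through 16.9 at Gfi1, 17.5 at Phf21a, 19.2 at Kdm1a, 28.3 at Rcor3, 36.5 at Gfi1b, 52.2 at Kdm1b, 58.5 at Hmg20b and 65.4 at Zmym2 to 66.6 at Rcor1. In wild-type FoB the SD of neighbours in this order overlapped, apart from 2 gaps: between Kdm1a (19.1 ± 1.61) and Rcor3 (32.5 ± 1.48), and between Gfi1b (32.7 ± 2.96) and Kdm1b (61.2 ± 9.41). In wild-type MZB the SD of Kdm1a (19.3 ± 5.08) and Rcor3 (26.1 ± 2.32) met. Per kb, the gene the knockout targets was thus among the 4 less accessible, of which the Rcor2 region lies past its start. The order depends on the width of the regions: in rppm without this division, the Kdm1a region (22.8) stood above the Gfi1b start region (18.3).

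Summed over all regions of a gene, Gfi1 was the member whose total was called both between the cell types and in the mean of the knockout effects. Its libraries held 60.2, 56.9 and 66.2 rppm in wild-type and 73.9, 67.2 and 70.9 in knockout MZB, and 46.0, 53.3 and 49.7 in wild-type and 61.7, 58.1 and 57.2 in knockout FoB. Every knockout library was above every wild-type library of its cell type. By limma on the summed values, adjusted over 16787 gene totals, 0 of 10 totals were called for the knockout in MZB (2.97% of all) and 0 in FoB (1.4% of all), with 1 at an unadjusted p under 0.05 in each, Gfi1, at 0.21 ± 0.08 (SE, adjusted p = 0.174) and 0.25 ± 0.08 (SE, adjusted p = 0.172). The difference of the 2 effects was called for 0 totals (0.0119% of all), with 0 at an unadjusted p under 0.05. The mean of both effects called Gfi1 alone, higher in the knockout (3.28% of all), at 0.23 ± 0.06 (SE, adjusted p = 0.0186), and not without wild-type MZB library 2, wild-type FoB library 1 or knockout FoB library 1.

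Between wild-type MZB and FoB, 2 totals were higher in MZB (23.1% of all), Gfi1 and Gfi1b, and 3 lower (25.6% of all), Hmg20b, Kdm1b and Rcor2. The differences were 0.30 ± 0.08 (SE, adjusted p = 0.00444) for Gfi1, 0.37 ± 0.13 (SE, adjusted p = 0.0184) for Gfi1b and -0.39 ± 0.07 (SE, adjusted p = 8.07e-05) for Hmg20b. Kdm1b and Rcor2 were nearer the threshold, at adjusted p of 0.03 and 0.0433. Calls numbered 3 without any one of wild-type MZB libraries 1, 2 and 3 and wild-type FoB libraries 1 and 2. In the knockout libraries Gfi1 and Gfi1b were higher in MZB (21.7% of all) and Hmg20b lower (20.9% of all). From regions that overlap the genes alone, 0 totals were higher in MZB in either genotype, and 3 were lower in wild-type and 1 in knockout libraries. For Hmg20b, wild-type MZB libraries measured 55.9, 58.2 and 55.0 rppm and knockout MZB libraries 59.5, 60.6 and 60.9, while wild-type FoB libraries measured 76.9, 71.4 and 73.3 and knockout FoB libraries 79.1, 75.0 and 74.7. Kdm1a, Rcor1, Rcor3, Phf21a and Zmym2 were called in no comparison of totals.

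**Figure D5:**
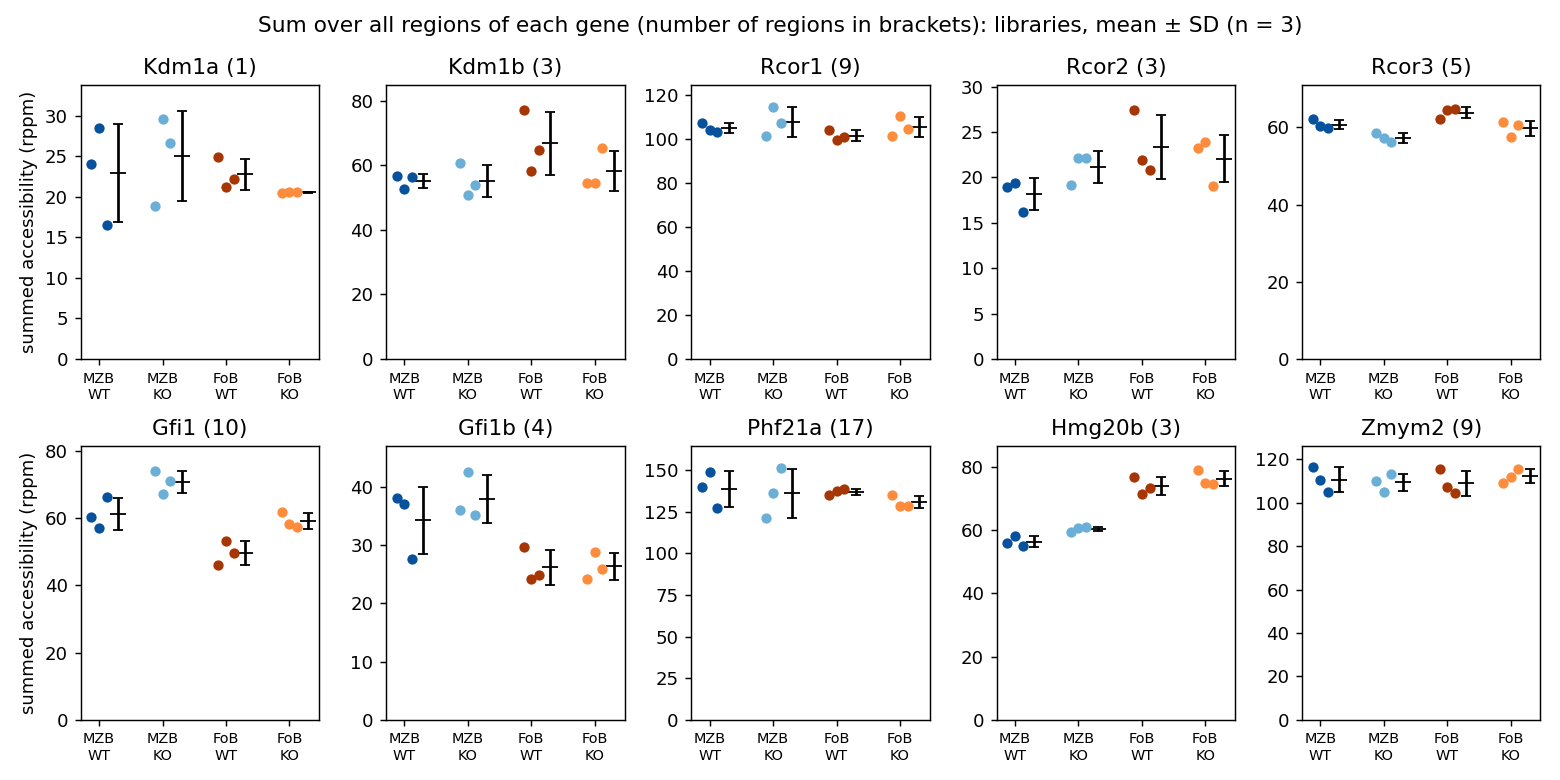
Summed accessibility in rppm (y axis, from 0) over all regions of each gene, in the 12 libraries (points, by group on the x axis), with mean and SD beside them (n = 3); the number of regions is in brackets. Gfi1 runs from 46.0 to 53.3 rppm in wild-type FoB to 67.2 to 73.9 in knockout MZB, and Hmg20b is lower in both MZB groups.

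Other genes of the pathway were taken from lists. Of 9 further CoREST and BHC genes, 8 had a region (none for Zmym3), with 151 tested regions. In MZB 1 was called higher in the knockout and 0 lower (0.662%, against 0.777% of all tested regions), and in FoB 2 were higher and 1 lower (1.99%, against 0.539%). All 4 calls lay at or nearest to Rreb1, up to 135263 bp away. Rreb1 encodes a zinc finger protein that joins LSD1 and CtBP. At the Rreb1 region with the smallest p (chr13:37958466-37958953), accessibility was 12.4 ± 0.714 rppm in wild-type MZB, 20.8 ± 1.41 in knockout MZB, 10.0 ± 0.59 in wild-type FoB and, in the knockout FoB libraries, 21.3 ± 1.79 (SD, n = 3), with a log2 difference of 0.73 in MZB (adjusted p = 0.0055) and 1.05 in FoB (adjusted p = 2.92e-05). The list's median knockout difference was 0.10 in MZB and 0.06 in FoB, against -0.02 in both over all tested regions. In the mean of the knockout effects 7 were higher (4.64%, against 1.3% of all) and 1 lower (0.662%, against 0.906%). The lower one and most of the higher ones were again at or nearest to Rreb1, and the others were nearest to Ctbp1 or Zfp217. Between wild-type MZB and FoB 22 were higher (14.6%, against 24.2% of all) and 16 lower (10.6%, against 11.4%).

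Of 11 DNA-binding factors known to recruit LSD1, with 260 tested regions, 2 regions were called higher in knockout MZB and 0 lower (0.769%, against 0.777% of all tested regions). Both had Runx1 as nearest gene, 120506 and 193874 bp away. In FoB 0 were called by limma, with 27 (10.4%, against 9.05% of all) at an unadjusted p under 0.05. In the mean of the knockout effects 3 were higher and 3 lower (1.15% each, against 1.3% and 0.906%). In wild-type cells 88 were higher (33.8%, against 24.2% of all) and 21 lower (8.08%, against 11.4%) in MZB (median 0.41, against 0.18 over all tested regions). Of 11 subunits of NuRD, the other large complex in which LSD1 has been found, 10 had a region (none for Rbbp7), with 75 tested; 0 were called by limma for the knockout in either cell type, with 5 and 6 at an unadjusted p under 0.05 (6.67% and 8%, against 13.3% and 9.05% of all). In their mean 2 were higher (2.67%, against 1.3%) and 0 lower, and 7 were higher (9.33%, against 24.2%) and 13 lower (17.3%, against 11.4%) in wild-type MZB.

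The genes whose start or end regions followed the Kdm1a region most closely over the 12 libraries, among 15374 regions compared, were Celsr1 (Pearson r = 0.866 on log2 values), Foxo6 (0.863) and Tmem141 (0.832). Their regions were weak, between 0.392 and 2.11 rppm in the group means, and share libraries and depth with Kdm1a, so the values are a description.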

How the data were processed

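ATAC-seq was compared over 12 libraries, 3 in each of 4 groups read from titles and LSD1 status. The authors deposited values for 94161 regions in RPM over the listed regions (rppm), made with Bowtie 1.1.1 on mm10 and MACS2, per the submitters' processing notes. Read filters, the merging of peaks, the Tn5 offset, strand and whether starts count from 0 have not been given in the sources used here, and coordinates are printed as deposited. All values (100%) were whole multiples of 1 read within 0.01, so reads were recovered for the count tests. Counting error alone is covered by the floor of 3 reads.

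Regions were given to the protein-coding gene they overlapped or lay nearest to, among 21900 genes of the RefSeq mm10 table. limma 3.58.1 (R 4.3.3) was fitted with a variance trend on log2(rppm + 0.5) over the 89782 regions that reached 1 rppm in 3 or more libraries, with all 12 libraries, two-sided, and Benjamini-Hochberg adjustment over all of them (threshold 0.05), and likewise on sums per gene (16787 genes). Fold changes on this scale understate changes of low regions. edgeR 4.0.16 (quasi-likelihood) and DESeq2 1.42.0 on the recovered reads, other pseudocounts, filters and scalings, a replicate block and leaving out each library were alternatives. The limma fit was tested on simulated data of 89782 regions.

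Regions named with values in every library were each gene's start region and strongest region, and those called with the smallest p or the largest change. Other called regions were named after their values were seen. The members and lists were chosen with earlier results of these data known. A marker list that was computed with the others is not reported here. Replicate numbers did not pair the libraries: deviations from group means correlated at -0.0934 to 0.134 over 18 pairs. No replicate pair looked like one library deposited again: chi-square over its degrees of freedom was 1.096 to 1.847, above sampling noise.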

Additional observations from a re-analysis of the deposited data

How the results depend on the processing

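Few reads lie behind the weak distal regions, such as 16 to 52 per group at the Rcor1 upstream element. Of 30 called pairs of region and comparison, 9 passed in every fit without 1 library. In every setting that kept the region 4 passed, the Rcor3 and Gfi1b upstream elements in both genotypes. The Rcor1 region higher in knockout MZB turned to -0.10 after median centring. Only 20 of the pairs not called were followed in this way: each gene's start region (for Rcor2 the one just past it) in the knockout comparison of MZB and of FoB. Of these, 1 passed in any setting. Other uncalled pairs did pass between the cell types: regions lower in wild-type MZB numbered 6 as deposited and 18 after median centring. The cause of these changes was not tested.

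Called regions in MZB for the knockout numbered 1 after quantile normalisation in place of 0, and 0 in the other settings run. For wild-type MZB against FoB (15) they numbered 8 to 16 without 1 library (8 without wild-type MZB library 3, 9 without wild-type FoB library 1) and 7 among regions that overlap a gene, a smaller set. For knockout MZB against FoB (13) they numbered 10 to 15 without 1 library, 7 after quantile normalisation, 8 by DESeq2 and 8 among overlapping regions. For the mean knockout effect (2), they numbered 0 to 2 without 1 library, 1 with a pseudocount of 0.1, 0 by DESeq2 (of 43 given an adjusted p) and 1 among overlapping regions. Gene totals called between wild-type cell types (5) numbered 3 to 5 without 1 library and 3 from overlapping regions, all lower in MZB, between knockout cell types (3) 1 from overlapping regions, lower in MZB, and for the mean effect (1) 0 to 1 without 1 library.

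With a replicate block, 14 and 15 regions were called between cell types in wild-type and knockout libraries and 0 for the knockout in MZB or FoB. The libraries share only a number: over 18 pairs, 8 correlated best with their own number. Limiting nearest genes to 100 kb changed no count, since the farthest region lay 21332 bp away.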
